A study of Homo sapiens with 12 samples.

Results

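The genes described here encode core proteins of the spliceosome, the machine that removes introns from pre-mRNA. They were taken as every gene whose only symbol in the platform annotation begins with SNRP, SF3A, SF3B or LSM, or consists of PRPF followed by digits alone. The rule gave 37 of the 11940 genes measured, and each gene was read from its brightest probe set by mean log2 intensity over the 12 arrays. All measurements came from HEL cells, a human erythroleukaemia line with a homozygous activating JAK2 mutation that every group carried, per the labels. Cells received lentiviral short hairpin RNA against JAK2 in a puromycin-selectable pLKO vector, as hairpin Jak2-9 (3 arrays) or hairpin Jak2-10 (3 arrays). The comparison groups were GFP (3 arrays), which the labels call both a vector control and a control hairpin, and Luc, a luciferase hairpin (3 arrays). The time after transduction and the age of the cultures were not given in the sources used here, and HEL is 1 cell line, so the arrays hold no spread between donors. Replicates are numbered in the labels without a statement that each was its own culture. The p-values therefore reflect array-to-array spread that could be technical.

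Spliceosomes assemble from small nuclear ribonucleoproteins (snRNPs), each built on a U-rich small nuclear RNA. The U1 snRNP pairs with the 5' splice site, the U2 snRNP with the branch point, and the U4/U6.U5 tri-snRNP then joins and is rearranged into the catalytic form. A ring of Sm proteins (SNRPB, the SNRPD proteins, SNRPE, SNRPF and SNRPG) encircles the U1, U2, U4 and U5 RNAs, and a ring of LSM proteins binds the end of U6. In myeloid cancers the SF3B1 gene is known as a site of recurrent mutation, and JAK2 is a tyrosine kinase that signals to the nucleus mainly through STAT transcription factors.

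JAK2 itself was lower with the hairpins. Its log2 intensity was 9.37, 9.89 and 10.09 on the Jak2-9 arrays and 10.06, 10.04 and 9.78 on the Jak2-10 arrays, against 10.47, 10.40 and 10.68 on GFP and 10.47, 10.63 and 10.56 on Luc arrays. Every hairpin array lay below every control array, and the mean level with both hairpins was 63.1% of the controls (limma, adjusted p = 0.00401). JAK2 stood at 59.3% with Jak2-9 (adjusted p = 0.00768) and at 67.0% with Jak2-10, which missed the threshold of 0.05 (adjusted p = 0.0824). The hairpins did not differ detectably in JAK2, with Jak2-10 minus Jak2-9 at 0.18 log2 (limma, adjusted p = 0.648). The lowest JAK2 value was that of Jak2-9 replicate 1 (9.37), while Jak2-9 replicates 2 and 3 read 9.89 and 10.09. In the control arrays 6 of 6 measured erythroid and 5 of 5 haematopoietic markers lay above the intensity of the median gene, against 4 of 7 megakaryocytic, 1 of 5 T lymphoid (CD2), 1 of 4 B lymphoid (CD79B), 1 of 5 fibroblast (DCN) and 0 of 5 epithelial markers. Array Jak2-9 replicate 1 stood apart from the rest. It was the highest of the 12 arrays for 24 of the 37 spliceosome genes and for 36.2% of all genes, and the lowest for 5 of the 37 and for 19.2% of all genes. For the calls and role groups that it moved most, values without it are also given.

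Among the 37 genes, PRPF6 alone passed the adjusted threshold, and rose, when both hairpins were set against both controls. PRPF6 encodes a bridging protein of the U4/U6.U5 tri-snRNP that holds the U5 particle to U4/U6. By limma's moderated test over all 11940 genes, 1 of the 37 genes passed an adjusted p of 0.05, beside 1.83% of all genes. For rises alone the background was 0.436%, and for falls, of which the 37 genes had none, it was 1.39%. At an unadjusted p of 0.05, 6 of the 37 genes passed, against 16.3% of all genes. All 6 were higher, against 10.5%, and 0 were lower, against 5.72%. RNA was taken from whole cultures, so fewer cells of a kind and less RNA per cell cannot be told apart.

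PRPF6 had log2 intensities of 7.02, 7.23 and 7.39 with Jak2-9 and 7.18, 7.17 and 6.82 with Jak2-10, against 6.73, 6.89 and 6.86 with GFP and 6.62, 6.51 and 6.60 with Luc. All 3 Jak2-9 arrays and the first 2 Jak2-10 arrays lay above every control array, while Jak2-10 replicate 3 lay below 2 of the GFP arrays. Against both controls PRPF6 rose by 0.43 ± 0.09 log2 (SE, n = 6 arrays against 6), which is 1.35-fold with a 95% interval of 1.19 to 1.53 (limma, adjusted p = 0.0147). With Jak2-9 alone it rose 1.42-fold (interval 1.22 to 1.66, adjusted p = 0.0192). With Jak2-10 the change was 1.28-fold (interval 1.10 to 1.49) and did not pass (limma, unadjusted p = 0.00418, adjusted p = 0.309). The hairpins did not differ detectably, with Jak2-10 minus Jak2-9 at -0.15 log2 and an interval of -0.41 to 0.10.

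The PRPF6 result leaned on the Luc arrays. Luc minus GFP was -0.25 ± 0.12 log2 for PRPF6 (limma, adjusted p = 1), against a change of 0.43 with the hairpins. Set against Luc alone, Jak2-9 was 0.64 log2 higher (adjusted p = 0.0139) and Jak2-10 0.48 higher (adjusted p = 0.127), while against GFP alone the values were 0.38 (adjusted p = 0.157) and 0.23 (adjusted p = 1). The call over both hairpins was lost when only GFP served as control (0.30 log2, adjusted p = 0.348). It was also lost without GFP replicate 1 (adjusted p = 0.0579), Jak2-10 replicate 1 (0.0514), Jak2-10 replicate 2 (0.0504) or Luc replicate 2 (0.0530), and the Jak2-9 call was lost without GFP replicate 1 (0.0527) or Luc replicate 2 (0.0531). Without Jak2-9 replicate 1, PRPF6 stood 0.60 log2 higher with Jak2-9 (adjusted p = 0.00607). PRPF6 has 1 probe set on the array, of the kind whose probes may also bind other transcripts, with a mean log2 intensity of 6.92.

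SNRPA encodes the U1 snRNP protein known as U1-A, which binds a stem-loop of U1 RNA. It was the other of the 37 genes past the threshold in any comparison. Its log2 intensity was 11.30, 10.93 and 11.05 with Jak2-9 and 10.91, 10.72 and 10.81 with Jak2-10, against 10.66, 10.74 and 10.68 with GFP and 10.80, 10.60 and 10.78 with Luc. The Jak2-9 arrays lay above all 6 control arrays, and the Jak2-10 arrays overlapped them. With Jak2-9 SNRPA rose by 0.38 ± 0.09 log2 (SE), or 1.30-fold (limma, adjusted p = 0.0443), and with Jak2-10 it stood 0.10 log2 higher (adjusted p = 1). Jak2-10 minus Jak2-9 was -0.28 log2 and did not pass (adjusted p = 0.499). The SNRPA call held in 6 of 20 settings tried and was lost without Jak2-9 replicate 1 (0.28 log2, adjusted p = 0.181). SNRPC, another U1 protein, which stabilises pairing with the 5' splice site, was 0.11 log2 higher with Jak2-9 and 0.05 higher with Jak2-10, and neither passed.

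The promoters of these 2 genes are shown because PRPF6 and SNRPA carry the calls above. Each runs from 250 bases before to 50 bases after the gene's start, 5' to 3' on the plus strand of GRCh38.p14, from RefSeq (PRPF6 at chr20:63980882-63981181 and SNRPA at chr19:40750953-40751252). Capitals mark matches, on either strand, to GGGCGG (the GC box) or CCGGAA (the core bound by ETS factors).
PRPF6: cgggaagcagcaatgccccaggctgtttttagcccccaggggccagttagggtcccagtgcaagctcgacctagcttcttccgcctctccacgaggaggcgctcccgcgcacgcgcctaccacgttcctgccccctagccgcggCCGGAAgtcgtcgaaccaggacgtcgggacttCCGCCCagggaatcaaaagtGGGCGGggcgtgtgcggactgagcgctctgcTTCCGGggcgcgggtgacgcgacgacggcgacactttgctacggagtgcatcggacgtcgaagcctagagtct
SNRPA: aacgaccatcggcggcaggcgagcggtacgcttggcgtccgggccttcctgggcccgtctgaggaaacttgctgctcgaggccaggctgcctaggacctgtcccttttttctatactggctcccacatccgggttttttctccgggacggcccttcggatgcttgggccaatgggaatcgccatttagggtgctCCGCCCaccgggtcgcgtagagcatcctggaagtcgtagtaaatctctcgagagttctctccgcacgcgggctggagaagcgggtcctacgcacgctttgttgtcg
PRPF6 held 2 matches to each of these motifs and SNRPA held 1 to GGGCGG. Neither sequence held TTCNNNGAA, the palindrome bound by STAT factors, or TATAAA. Among the 31 spliceosome genes with a promoter sequence, 19 held CCGGAA (61.3%), against 24.7% of the 9592 promoters of measured genes and 17.6% of all 27305. GGGCGG was in 18 (58.1%, against 63.1% of measured genes). TTCNNNGAA was in 1, PRPF19 (3.2%, against 6.6%), and TATAAA was in 1, SNRPC (3.2%, against 8.6%). No marked match overlapped another, and a match describes letters in this window, not a site in use.

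**Figure D1:**
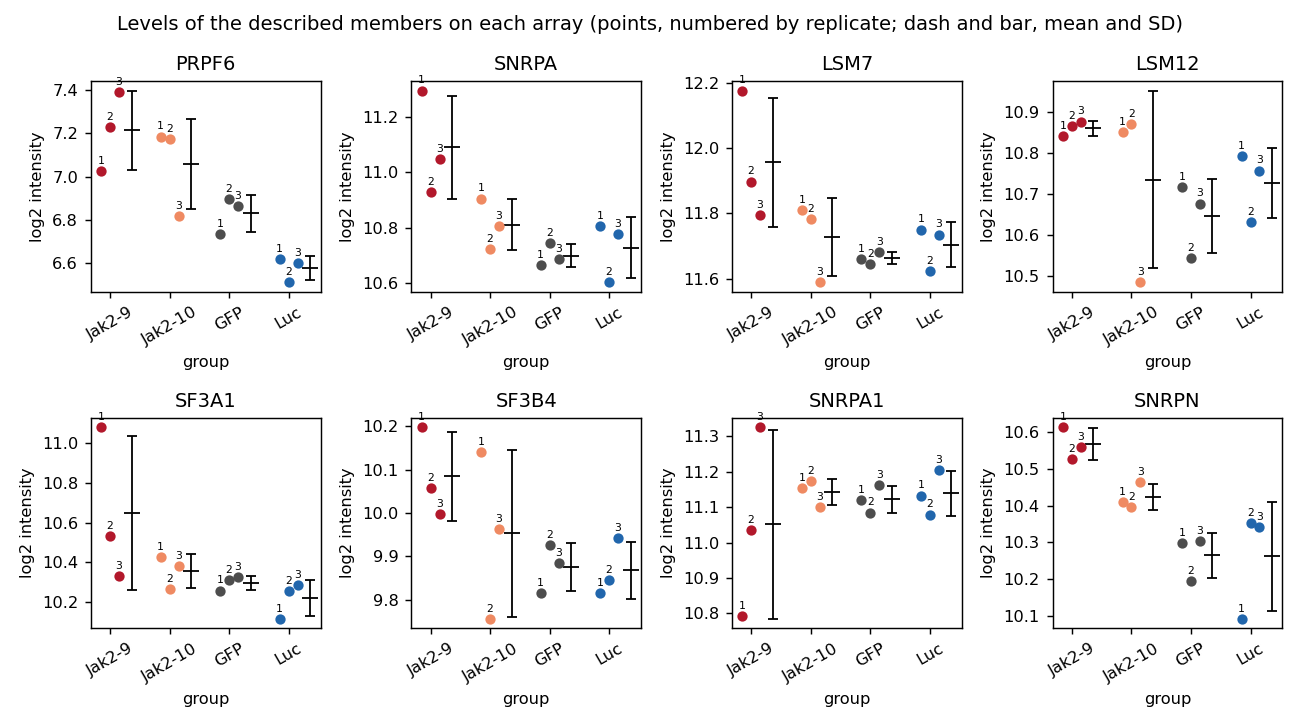
Log2 intensity of the named spliceosome genes on each array (points numbered by replicate), with the mean and SD of each group of 3 arrays as dash and bar, ordered Jak2-9, Jak2-10, GFP and Luc. The Jak2-9 group has the highest mean for PRPF6 (arrays at 7.02 to 7.39), and Jak2-10 replicates 1 and 2 (7.18 and 7.17) lie within its range. For SNRPA Jak2-9 replicate 1 (11.30) lies above the other arrays.

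Over the whole set, most changes were small. The median change of the 37 genes with both hairpins was 0.08 log2, against 0.04 for all genes, with a range of -0.14 to 0.43, and 26 of 37 were above 0 (70.3%, against 63.5% of all genes). The 95% interval lay within 1.5-fold in both directions for 36 of 37 genes, against 95.2% of all genes. PRPF6 was the exception. Within groups the 37 genes had a median SD of 0.12 log2, against 0.15 for all genes, and over the control arrays the SD was 0.07 against 0.11.

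With Jak2-9 most of the set lay above the controls. The median change was 0.16 log2 (all genes 0.06), and 28 of 37 genes were above 0 (75.7%, against 63.7% of all genes). By limma 2 of 37 genes rose, against 1.60% of all genes in that direction and 3.07% in either. At an unadjusted p of 0.05, 14 were higher (17.0% of all genes) and 1, PRPF18, was lower (7.22% of all genes). In 12 of the 37 genes (32.4%) all 3 Jak2-9 arrays lay above all 6 control arrays, against 9.41% of all genes. In 1, SNRPD1, they lay below them, against 3.80% of all genes. Without Jak2-9 replicate 1 the same 12 genes lay above the controls, against 12.2% of all genes, and SNRPD1 below them, against 5.33%. Leaving out an array cannot undo such a separation, so these counts do not test the weight of that array. The median without Jak2-9 replicate 1 was 0.07 log2 (all genes 0.04). In that fit 5 genes passed an unadjusted p of 0.05 in the higher direction (13.5%, against 8.32%) and 0 in the lower (against 4.25%), and PRPF6 alone passed the adjusted threshold, against 1.31% of all genes.

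With Jak2-10 the 37 genes lay about evenly on both sides of the controls. The median was 0.00 log2 (all genes 0.02) with a range of -0.10 to 0.35, and 18 of 37 genes were above 0 (48.6%, against 56.6% of all genes). By limma 0 of 37 passed, against 0.687% of all genes (0.0419% higher and 0.645% lower). At an unadjusted p of 0.05, 1 passed, PRPF6, against 5.76% of all genes (2.65% higher and 3.11% lower). The interval lay within 1.5-fold for 37 of 37 genes, against 95.8% of all genes. On Jak2-10 replicates 1, 2 and 3 the median of the 37 genes minus the control mean was 0.08, 0.02 and -0.08. For all genes it was 0.04, 0.04 and -0.04. The median change with Jak2-10 was 0.05 log2 without Jak2-10 replicate 3 and -0.02 without Jak2-10 replicate 1. Jak2-10 minus Jak2-9 was below 0 for 29 of 37 genes (78.4%, against 59.5% of all genes), with a median of -0.13 log2 (all genes -0.04). The median was -0.07 without Jak2-9 replicate 1 (all genes -0.03), with 30 of 37 genes below 0. None passed by limma, with 0% of all genes called. At an unadjusted p of 0.05, 5 passed (9.83% of all genes). SF3B5, SNRPA, PRPF19, SF3B3 and PRPF4 were all lower with Jak2-10 (7.33% of all genes), and 0 were higher (2.50%). None of those 5 passed it without Jak2-9 replicate 1. PRPF6 alone did, at -0.25 log2 (limma, adjusted p = 0.931), beside 506 of all 11940 genes. Between controls, Luc minus GFP had a median of -0.01 log2, with 0 of 37 genes past limma's adjusted threshold (0% of all genes) and 0 past the unadjusted one (1.92% of all genes, 1.01% higher and 0.905% lower).

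**Figure D2:**
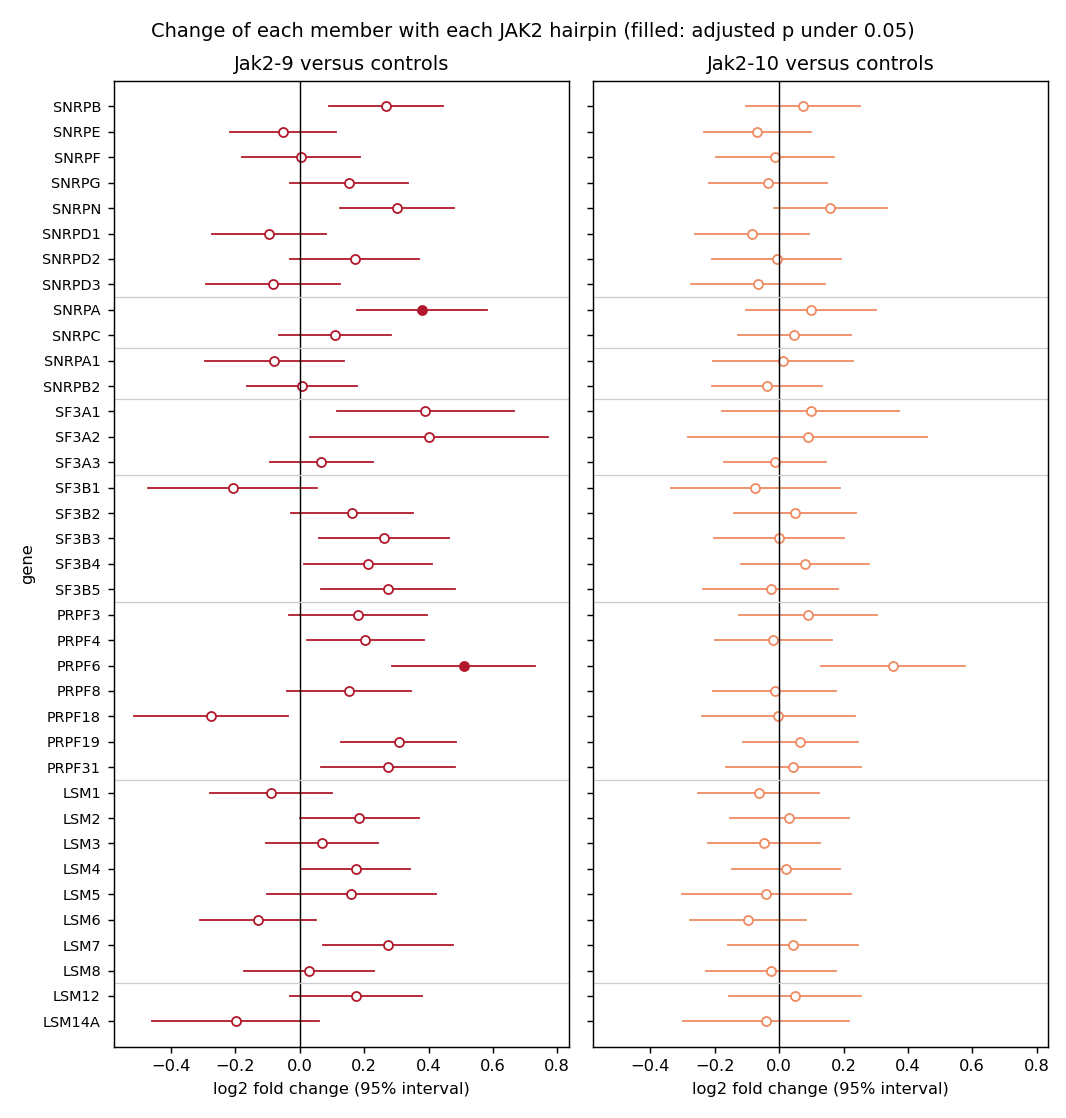
Log2 change of each of the 37 genes against the mean of the GFP and Luc groups, for Jak2-9 (left) and Jak2-10 (right), grouped by role, with lines for 95% intervals and filled points for an adjusted p under 0.05. Points with Jak2-9 spread from -0.28 to 0.51 and points with Jak2-10 from -0.10 to 0.35. PRPF6 is the highest with both hairpins, which share their control arrays.

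Among the Sm ring proteins, SNRPN came nearest to the threshold. SNRPN encodes SmN, a close relative of SmB that is known for expression in brain and from an imprinted locus. It had log2 intensities of 10.61, 10.53 and 10.56 with Jak2-9 and 10.41, 10.40 and 10.46 with Jak2-10, against 10.30, 10.20 and 10.30 with GFP and 10.09, 10.35 and 10.34 with Luc. All hairpin arrays lay above all control arrays, the single such case among the 37 genes (background 1.20% higher and 1.51% lower), and likewise with Jak2-10 alone (1 of 37 higher, against 2.68%, and 0 lower, against 2.60%). The change was 0.23 ± 0.07 log2 with both hairpins (limma, adjusted p = 0.118) and 0.30 ± 0.08 with Jak2-9 (adjusted p = 0.0568). The brightest SNRPN probe set is of the kind whose probes may bind related transcripts, and the SmN and SmB proteins are near-identical. Whether its probes bind SNRPB transcripts was not checked, so the SNRPN signal is uncertain. The other SNRPN probe sets were dim (mean log2 4.35 and 4.94) and stood at -0.15 and -0.14 with both hairpins.

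SNRPB, which encodes the SmB and SmB' proteins, ranged between 11.98 and 12.23 over the 3 arrays with Jak2-9, and had 11.90, 11.93 and 11.79 with Jak2-10, against 11.79, 11.77 and 11.79 with GFP and 11.88, 11.76 and 11.81 with Luc. All Jak2-9 arrays were above the controls and Jak2-10 overlapped them, and the change with Jak2-9 was 0.27 log2 (limma, adjusted p = 0.0784). A second SNRPB probe set stood 0.38 higher with Jak2-9 and passed in a fit over all 19415 named probe sets (adjusted p = 0.0383). Without Jak2-9 replicate 1 the first SNRPB probe set stood at 0.19 (adjusted p = 0.332) and the second at 0.25, no longer past the threshold (adjusted p = 0.149). The 8 Sm genes had a median of 0.03 log2 with both hairpins, and 0 of 8 passed, against 1.83% of all genes. SNRPD1, SNRPD3, SNRPE and SNRPF, all ring subunits, lay between -0.09 and -0.01, and SNRPD2 and SNRPG at 0.08 and 0.06.

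The U2 snRNP and its branch point complexes gave no call. SNRPA1, the A-prime protein of U2, had 10.79, 11.04 and 11.32 with Jak2-9 and 11.15, 11.17 and 11.10 with Jak2-10, against 11.12, 11.08 and 11.16 with GFP and between 11.08 and 11.20 with Luc. The Jak2-9 arrays spread to both sides of all the others, and SNRPA1 stood at -0.03 log2 with both hairpins (limma, adjusted p = 0.865), with its partner SNRPB2, the B-double-prime protein, at -0.02. SF3A and SF3B are the complexes that complete the U2 snRNP and hold the branch point. The 3 SF3A genes had a median of 0.24 log2 with both hairpins and 0.39 with Jak2-9, with 0 of 3 past the threshold. Of all genes 1.83% and 3.07% passed in these comparisons. Without Jak2-9 replicate 1 those medians were 0.08 and 0.07, and the Jak2-9 one lay below those of the PRPF genes (0.15), the SF3B genes (0.14) and the U1 genes (0.16) in the same fit.

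SF3A1 carried part of that. Its values were 11.08, 10.53 and 10.33 with Jak2-9 and 10.43, 10.26 and 10.38 with Jak2-10, against 10.26, 10.31 and 10.32 with GFP and 10.12, 10.26 and 10.28 with Luc. Jak2-9 replicate 1 lay well above every other array, and the difference with Jak2-9 was 0.39 log2 (limma, adjusted p = 0.0949), or 0.17 without that array (adjusted p = 0.441). SF3A2 stood 0.40 log2 higher with Jak2-9 (adjusted p = 0.173), or 0.07 without that array, and its value on replicate 1 was 9.31 while the other Jak2-9 arrays read 8.39 and 8.23. SF3A3, the third subunit, stood at 0.07.

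The SF3B genes had a median of 0.12 log2 with both hairpins and 0.21 with Jak2-9, and 0 of 5 passed the threshold in either (1.83% and 3.07% of all genes). At an unadjusted p of 0.05 with Jak2-9, 3 of 5 were higher by their brightest probe sets (17.0% of all genes) and 0 lower (7.22% of all genes). The 3 were SF3B3 at 0.26, SF3B4 at 0.21 and SF3B5 at 0.27. With Jak2-9 replicate 1 left out, the Jak2-9 median was 0.14 and 0 of 5 passed the unadjusted threshold. Of all genes, 8.32% passed it higher and 4.25% lower in that fit. SF3B4, which contacts pre-mRNA near the branch point, had 10.20, 10.06 and 10.00 with Jak2-9 and 10.14, 9.76 and 9.96 with Jak2-10, against 9.82, 9.93 and 9.88 with GFP and 9.82, 9.85 and 9.94 with Luc. Jak2-9 was above all controls, Jak2-10 was not, and the change with both was 0.15 log2 (limma, adjusted p = 0.353). SF3B1, the branch point clamp and frequent site of mutation in myeloid disease, stood at -0.14 with both hairpins (adjusted p = 0.499), or -0.05 without that array. Its Jak2-9 value on replicate 1 was 11.55, where replicates 2 and 3 read 12.06 and 12.16.

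The other PRPF genes did not pass. These encode tri-snRNP proteins (PRPF3, PRPF4, PRPF31 and PRPF8, the U5 scaffold at the catalytic centre), the second-step factor PRPF18 and PRPF19, the ubiquitin ligase at the core of the PRPF19 complex. The 7 PRPF genes had a median of 0.14 log2 with both hairpins, 0.20 with Jak2-9 and 0.04 with Jak2-10. PRPF19 came nearest, 0.31 higher with Jak2-9 (limma, adjusted p = 0.0568), or 0.23 without Jak2-9 replicate 1 (adjusted p = 0.228). PRPF18 was lower, at -0.28 with Jak2-9 (adjusted p = 0.152) and -0.10 without Jak2-9 replicate 1, with 7.96 on replicate 1 and 8.49 and 8.47 on replicates 2 and 3.

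LSM ring genes also gave no call, with 0 of 8 past the threshold with both hairpins (1.83% of all genes) or with Jak2-9 (3.07%). Their median was 0.04 log2 with both hairpins and 0.11 with Jak2-9. These medians were -0.03 and -0.02 without Jak2-9 replicate 1. LSM2 to LSM8 form the ring on U6 RNA, and LSM1 replaces LSM8 in the cytoplasmic ring that acts in mRNA decay. LSM7, a subunit of both rings, had 12.18, 11.90 and 11.80 with Jak2-9 and 11.81, 11.78 and 11.59 with Jak2-10, against 11.66, 11.65 and 11.68 with GFP and 11.75, 11.62 and 11.74 with Luc. Jak2-9 was above all controls, Jak2-10 overlapped them, and the change with both hairpins was 0.16 log2 (limma, adjusted p = 0.327). The other LSM ring genes lay between -0.11 (LSM6) and 0.11 (LSM2) with both hairpins.

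LSM12 and LSM14A lie outside the rings, and LSM14A is known as a protein of cytoplasmic mRNA granules. LSM12 had 10.84, 10.87 and 10.88 with Jak2-9 and 10.85, 10.87 and 10.48 with Jak2-10, against 10.72, 10.54 and 10.68 with GFP and 10.79, 10.63 and 10.76 with Luc. All Jak2-9 arrays lay above all controls while Jak2-10 replicate 3 lay below them, and the change was 0.11 log2 (limma, adjusted p = 0.492). The other LSM12 probe set, dimmer at a mean log2 of 8.65, did not show that separation. It read 8.34, 8.85 and 8.80 with Jak2-9, against 8.51 to 8.69 on the control arrays. Its change with Jak2-9 was 0.06 log2 (limma over 19415 probe sets, adjusted p = 0.808). LSM14A stood at -0.12 (adjusted p = 0.561), or -0.02 without Jak2-9 replicate 1.

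**Figure D3:**
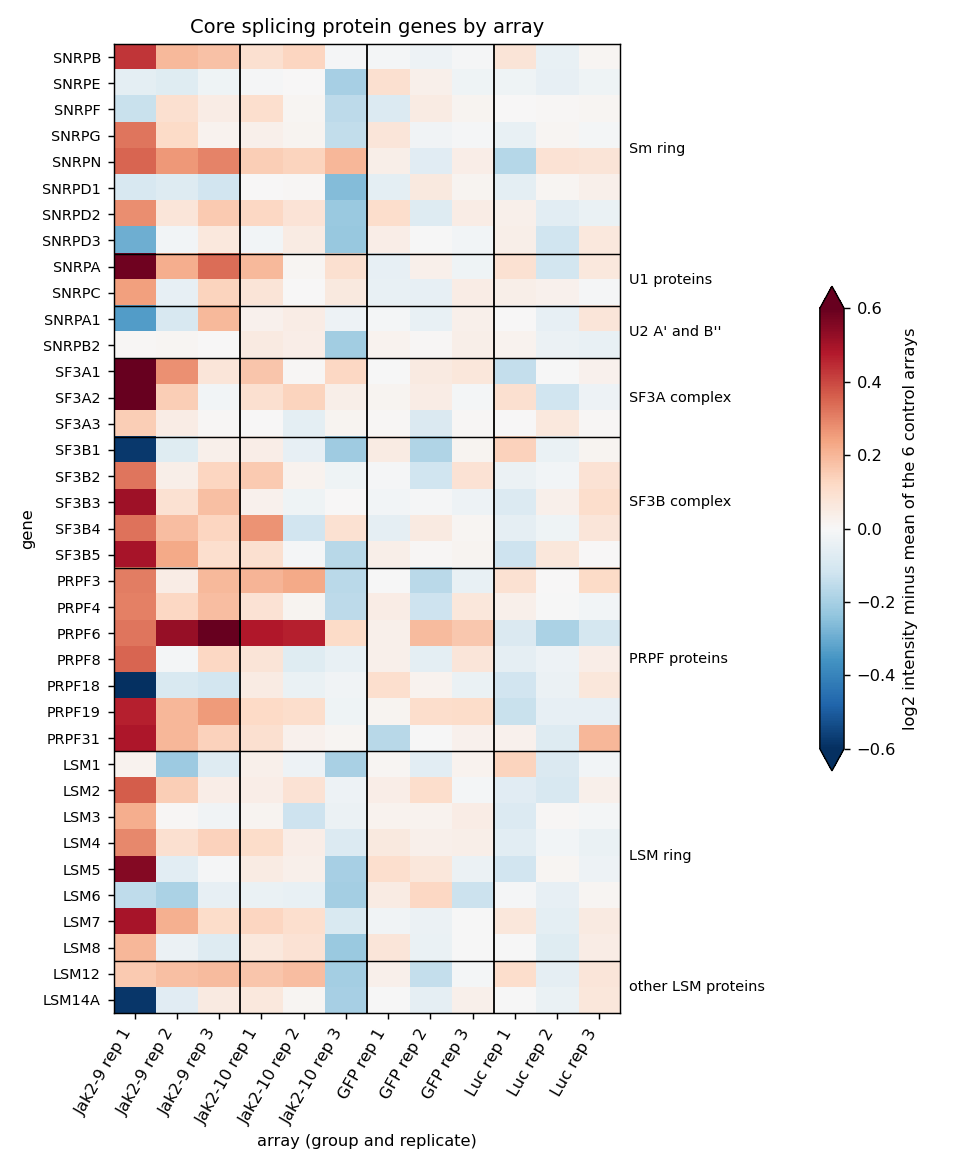
Log2 intensity of each of the 37 genes on each array, minus that gene's mean over the 6 control arrays, with colour limited to a fixed range and columns ordered Jak2-9, Jak2-10, GFP and Luc. Jak2-9 replicate 1 has the most extreme column, and SF3A2 and SF3A1 are among its highest cells.

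Jak2-9 replicate 1 held the largest departures. For 13 of 37 genes it lay over 0.3 log2 away from the average of Jak2-9 replicates 2 and 3 (8 higher and 5 lower), against 41.1% of all genes. SF3A2 was 2.01-fold higher there and SF3A1 1.57-fold higher, while LSM14A, SF3B1 and PRPF18 were lower by -0.57, -0.56 and -0.53 log2. The median of the 37 genes minus its control mean was 0.30 on this array (all genes 0.10), against -0.08 to 0.10 on the other 11. On the same array the difference between the 3' and 5' control probe sets of ACTB, a mark of RNA integrity and amplification, was 0.42 log2, against 0.13 to 0.38 on the others. The same difference for GAPDH was 0.09 log2 on this array, against -0.13 to -0.004 on the others. Jak2-10 replicate 3 was the lowest array for 15 of the 37 genes, against 17.8% of all genes. An Alu control probe set read 13.94 to 14.13 with Jak2-9 and 14.01 to 14.15 with Jak2-10, against 14.50 to 14.64 with GFP and 14.63 to 14.68 with Luc. The part of these values in the results above was not tested.

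**Figure D4:**
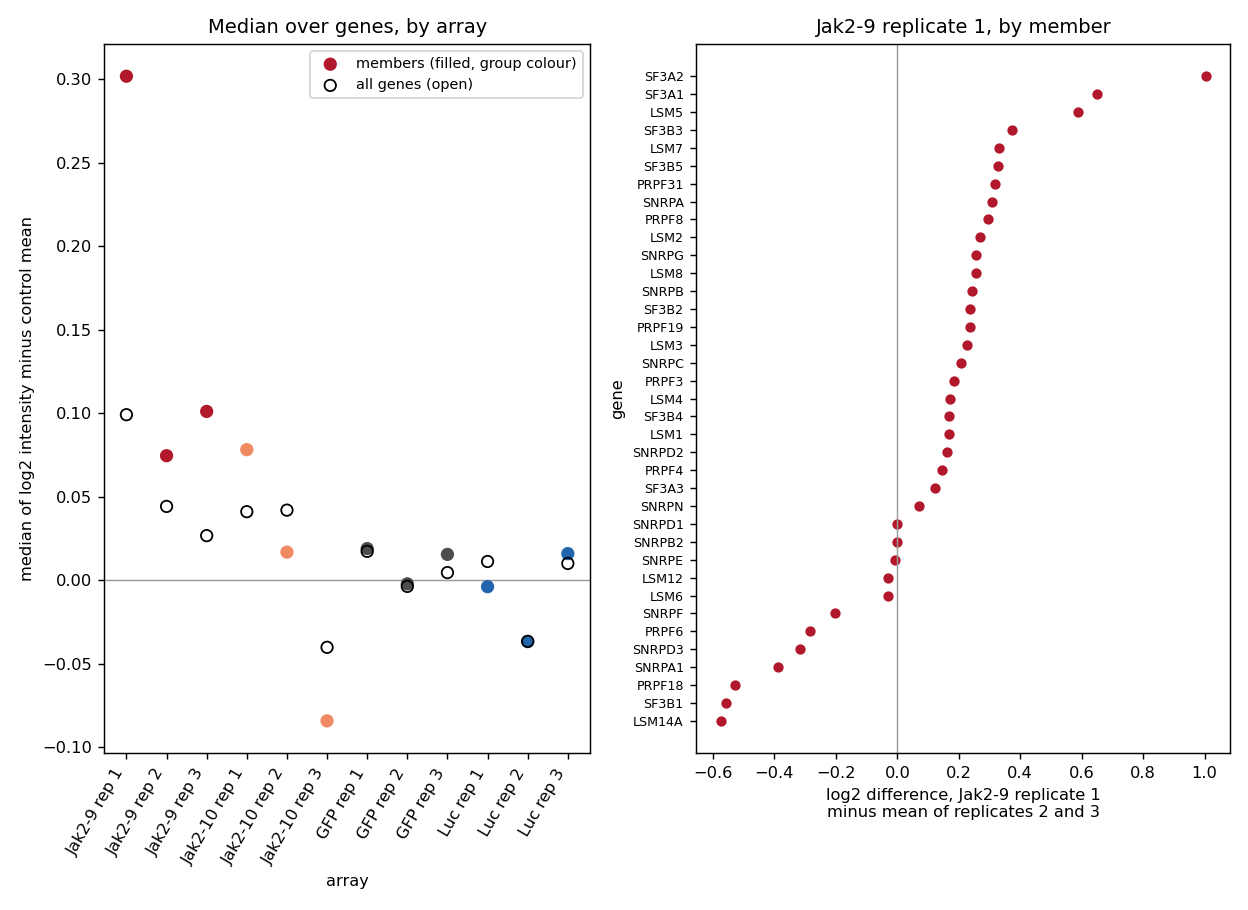
Left, the median over the 37 genes and over all 11940 genes of log2 intensity minus the control mean on each array, ordered Jak2-9, Jak2-10, GFP and Luc. Jak2-9 replicate 1 stands at 0.30 for the 37 genes (filled) and 0.10 for all genes (open). Right, log2 intensity on Jak2-9 replicate 1 minus the average of replicates 2 and 3 for each of the 37 genes, which is 1.00 for SF3A2 and -0.57 for LSM14A.

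Other probe sets of the same genes mostly ran the same way. Among the 37 genes, 15 had further probe sets, 22 in all, and 19 of those had the sign of the brightest one with both hairpins, 19 with Jak2-9 and 13 with Jak2-10.

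Few splicing genes outside the naming rule passed. Among 54 measured partner genes with both hairpins, 1 passed and rose, ZMAT5, and 0 fell, with a median of 0.06 log2. Of all genes 0.436% rose and 1.39% fell (1.83% in either direction). With Jak2-9, 1 of 54 rose, DHX38, and 0 fell, with a median of 0.11. Of all genes 1.60% rose and 1.47% fell there (3.07% in either direction). With Jak2-10, 0 of 54 passed (all genes 0.687%), and 0.01 was the median (all by limma). ZMAT5, a protein of the minor spliceosome's U11/U12 snRNP, had 10.21, 9.65 and 9.75 with Jak2-9 and 9.88, 9.73 and 9.89 with Jak2-10, against 9.57, 9.36 and 9.58 with GFP and 9.47, 9.39 and 9.43 with Luc. All hairpin arrays lay above all control arrays, and ZMAT5 rose by 0.39 ± 0.09 log2, or 1.31-fold (limma, adjusted p = 0.0492). That call was lost in 13 of 22 settings, among them GFP alone (adjusted p = 0.303) and Luc alone (adjusted p = 0.113) as the control.

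DHX38, the helicase that acts before the second splicing step, had 8.33, 8.03 and 8.05 with Jak2-9 and 7.89, 7.67 and 7.62 with Jak2-10, against 7.71, 7.72 and 7.72 with GFP and 7.88, 7.66 and 7.62 with Luc. Jak2-9 lay above all other groups, and Jak2-10 overlapped the controls. With Jak2-9 it rose 1.33-fold (limma, adjusted p = 0.0354), and without Jak2-9 replicate 1 the change was 0.32 log2 (adjusted p = 0.142). With both hairpins the U5 protein CD2BP2 stood at 0.36 log2 (adjusted p = 0.160) and PRPF38B, a relative of the PRPF38A activation factor, at -0.33 (adjusted p = 0.0991). GEMIN4 of the SMN assembly complex stood at 0.26 (adjusted p = 0.174), and PUF60, a U2AF-related factor, at 0.19 (adjusted p = 0.282). None of these 4 passed by limma.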

How the data were processed

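The authors deposited 1 table of linear intensity values per probe set and array (11.2 to 36233.5), made with RMA, per the submitters' processing notes (version not given in the sources used here). That method makes array distributions alike and compresses changes of dim probe sets. The design assumed log2 values, so log2 was taken, with no pseudocount. Of 22930 probe sets, 524 control ones and 125 with several symbols were left out, 2866 were not named here, and 19415 with 1 symbol covered 11940 genes. limma 3.58.1 (R 4.3.3; figures with matplotlib 3.10.9) fitted 4 group means to all 12 arrays, and p-values were adjusted by Benjamini-Hochberg across all 11940 genes. The number of arrays limits the precision.

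The members and lists were chosen with earlier results of these data known. Genes named by rule are JAK2, those that passed in any comparison, and otherwise the lowest p in each role group or partner list. SNRPB, SF3A2, SF3B1, PRPF18 and PRPF19, and the promoters and motifs shown, were chosen after values were seen. LSM10, LSM11, LSM14B, PRPF39 and SF3B6 were not analysed here. All 37 symbols matched RefSeq, and 31 had a promoter sequence. The procedure was tested on simulated data. Alternatives were other scaling, low-value filters, probe set rules, array weights, a replicate block, single controls and each array left out.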

Additional observations from a re-analysis of the deposited data

How the results depend on the processing

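The number of the 37 genes called with Jak2-9 moved from 2 to 1 with arrays centred on their medians, with quantile normalization, with array weights and with only the arrays compared, to 4 with the mean of a gene's probe sets (PRPF19, PRPF6, SNRPA and SNRPB) and to 5 with an intensity trend in the spread. Leaving out each array gave 0 (without GFP replicate 1 or Luc replicate 2) to 7 (without Jak2-9 replicate 3). With both hairpins it was 0 with GFP alone, and 0 to 1 with each array left out. With Jak2-10 it was 1 (PRPF6) with array weights, which set Jak2-9 replicate 1 to 0.124 and Jak2-10 replicate 3 to 0.355. Array weights put the median at 0.0862 log2 for Jak2-9 and at -0.0451 for Jak2-10 minus Jak2-9. Leaving out each array put the median between 0.0708 and 0.21 for Jak2-9, -0.17 and -0.07 for Jak2-10 minus Jak2-9, 0.05 and 0.12 for both hairpins, -0.02 and 0.05 for Jak2-10, and -0.03 and 0.01 for Luc minus GFP. In the main fit 3.07% of all genes were called with Jak2-9, 1.83% with both hairpins and 0.687% with Jak2-10. Without Jak2-9 replicate 1 the Jak2-9 share was 1.31%. The shares of all genes under the other settings are not given here, so these counts cannot be read as particular to the 37 genes. The cause of these moves was not tested. Of 1428 values for single genes under alternatives, 1316 kept their sign and side of the threshold, 44 changed sign without being past it in either fit, 43 were no longer past it, 25 newly passed and 0 reversed among those past it.

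Whether replicate numbers pair the arrays was not settled by these values. Of 18 same-number pairs, 5 had deviations correlated above 0.1 (range -0.12 to 0.18), and 7 of 12 arrays correlated best with their own number. With the replicate number as a block, 1 of the 37 genes was called with both hairpins and 2 with Jak2-9, and 0 in the other 3 comparisons. The share of all genes called in that fit is not given here. The part of dim signal in these results was not tested.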
